A study of Mus musculus with 8 samples.

Results

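Basement membrane genes were described in the aorta of newborn mice with and without lysyl oxidase (Lox), the enzyme that starts the crosslinking of collagen and elastin. The set held 34 genes, chosen by symbol from knowledge of the basement membrane, out of 22180 genes with a probe set of their own on the array. Each was read from 1 probe set, the one with the highest mean over the 8 arrays, and all 34 passed the filter on dim genes that left 16635 genes for testing. The rule itself uses no measured value, but it was set with earlier results of these data known.

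Total RNA came from pups at postnatal day 0 on an albino C57BL/6J background. The 4 groups were wild-type (WT) ascending, WT descending, Lox knockout (KO) ascending and KO descending aorta. Ascending pieces were cut between the valve and the ductus arteriosus, descending pieces between the vena cava and the diaphragm. Every group had 2 arrays, each of RNA pooled from 8 pups of 1 genotype, so spread is between pools and no value belongs to a single pup. The labels name the KO pups as Lox knockouts and add no promoter or Cre; how the allele was made is not given here. Both genotypes shared the strain and the age. The number of arrays limits the precision.

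Basement membranes are thin sheets of matrix that surround each smooth muscle cell of the aortic wall and lie under its endothelium. Laminin trimers, each of an alpha, a beta and a gamma chain, bind cell receptors and form a first network, collagen IV forms a second one, and nidogens and perlecan link the networks. The collagen IV network is held by sulfilimine bonds made by peroxidasin, and relatives of Lox are also known to crosslink it. Further proteins, among them netrin 4, the SMOCs, nephronectin and the FRAS and FREM proteins, adjust assembly or join the sheet to neighbouring cells and matrix.

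The collagen IV genes lie in head-to-head pairs, and the pair on the X chromosome was the pair whose members both differed between segments. The 250 bases before the start of Col4a5, Col4a6 and Egfl6 are therefore shown, taken from RefSeq on GRCm38.p6, with capitals marking matches to CCAAT or GGGCGG on either strand (a match on the other strand reads ATTGG or CCGCCC). The Col4a5 window is chrX:141475169-141475418 on the plus strand, the Col4a6 window chrX:141474077-141474326 on the minus strand and the Egfl6 window chrX:166585717-166585966 on the minus strand.
Col4a5: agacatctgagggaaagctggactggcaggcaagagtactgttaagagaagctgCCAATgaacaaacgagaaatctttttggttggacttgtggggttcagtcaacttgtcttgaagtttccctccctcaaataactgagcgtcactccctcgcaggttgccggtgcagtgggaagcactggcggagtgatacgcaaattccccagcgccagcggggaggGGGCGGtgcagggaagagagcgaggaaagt
Col4a6: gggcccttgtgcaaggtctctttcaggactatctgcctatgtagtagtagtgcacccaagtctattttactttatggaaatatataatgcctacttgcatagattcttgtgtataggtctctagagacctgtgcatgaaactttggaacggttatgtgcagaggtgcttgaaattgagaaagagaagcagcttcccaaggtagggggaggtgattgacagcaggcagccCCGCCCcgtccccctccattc
Egfl6: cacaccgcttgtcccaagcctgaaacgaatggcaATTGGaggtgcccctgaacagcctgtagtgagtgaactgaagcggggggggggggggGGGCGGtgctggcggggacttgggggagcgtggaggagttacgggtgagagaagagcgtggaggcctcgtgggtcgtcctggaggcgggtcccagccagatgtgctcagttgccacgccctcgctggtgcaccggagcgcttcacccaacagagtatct
The annotated starts of Col4a5 and Col4a6 lie 1343 bases apart and point away from each other. Those of Col4a1 and Col4a2, on chromosome 8, also face away and their first bases overlap by 22 bases. The Col4a5 window held CCAAT starting 196 bases before the start and GGGCGG 30 bases before it. Col4a6 had a reverse GGGCGG at 21 bases, and Egfl6 a reverse CCAAT at 216 and GGGCGG at 159 bases. TATAAA, the third motif searched on both strands, was in none of these windows. The table gave windows for 24 of the 34 members, 31 windows in all, since some genes have more than 1 start. CCAAT was in 12 of the 31 and in 33.8% of all 32851 windows of that length, GGGCGG in 18 and in 32.7%, and TATAAA in 0 and in 12.4%. These matches describe the letters only.

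The labels and the tissue were checked on the arrays. Lox itself read 11.47 and 11.60 on the WT ascending arrays, 8.87 and 8.74 on KO ascending, 11.41 and 11.24 on WT descending and 8.56 and 8.51 on KO descending (log2 signal), lower in KO in both segments. The summed signal of 7 smooth muscle markers lay between 13.85 and 13.96 log2 on the 8 arrays, and 0 of the 7 passed the test (limma, adjusted p under 0.05) in a comparison of 2 groups. Averaged over genotypes, 2 of the 7 were higher in the ascending piece, against 1.5% of all genes. Several other marker lists moved with genotype. All 10 endothelial markers had lower means in KO in both segments, with summed signals of 12.10 and 12.19 in WT ascending, 11.80 and 11.82 in KO ascending, 12.29 and 12.33 in WT descending and 12.01 and 12.03 in KO descending. Of these 2 fell in the ascending and 1 in the descending segment, and 6 of 10 fell on average over segments. Of all 16635 genes tested, 1.19%, 0.824% and 5.22% fell in KO in the ascending, descending and averaged comparison. Those that rose were 1.54%, 1.46% and 6.21%. Summed adipocyte markers (7 genes) were 8.97 and 9.63 in WT ascending, 8.27 and 8.38 in KO ascending, 10.29 and 10.77 in WT descending and 9.29 and 9.78 in KO descending, with 3 and 1 of 7 lower in KO in the ascending and descending segments and 4 of 7 on average. Of 7 fibroblast markers 2 fell in the ascending aorta, 1 rose and 1 fell in the descending aorta, and 1 rose and 2 fell on average. Their summed signals were 13.59 and 13.62 in WT ascending, 13.39 and 13.42 in KO ascending, 13.62 and 13.63 in WT descending and 13.42 and 13.48 in KO descending. Lung epithelial markers (10 genes, 9 tested) summed to 10.23 and 10.93 in WT descending and 9.93 on WT ascending array 2, against 8.21 to 8.41 on the other 5 arrays, and 2 of 9, Sftpc and Nkx2-1, were lower in KO descending than in WT descending aorta (3 of 9 lower in KO on average). Cardiac (6 genes), skeletal muscle (6) and thymus (5) markers had 0 genes passing for genotype in limma, in either segment or on average. At an unadjusted p under 0.05 in limma, 1, 0 and 0 of them were counted on average, beside 27.6% of all genes. Median differences KO minus WT of these lists were -0.07, -0.02 and -0.74 log2 in the ascending aorta and -0.48, 1.11 and 0.10 in the descending aorta. In the descending aorta 6 of 6 skeletal muscle and 0 of 6 cardiac markers were above 0. Summed cardiac signals ran from 11.83 to 12.71 and skeletal muscle signals from 8.45 to 11.42, while the thymus sum was 8.80 on WT ascending array 1 and at most 7.53 on the other 7 arrays. The files hold no detection calls, so no marker could be placed at 0. In bulk tissue fewer cells of a type and less RNA per cell cannot be told apart, and the part of these cell types in the results was not tested.

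**Figure D1:**
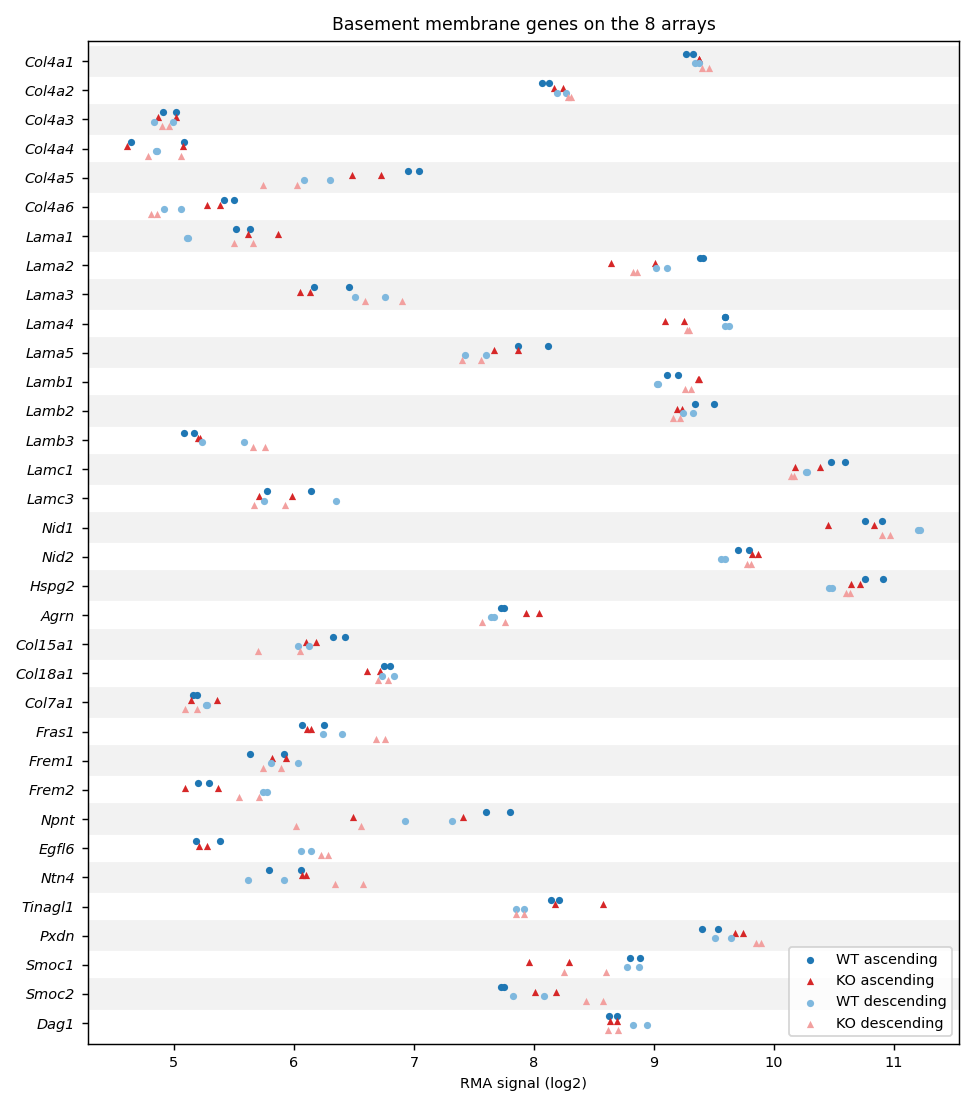
Signal of the 34 genes (rows) on each of the 8 arrays, on the log2 RMA scale; circles are WT and triangles KO arrays, dark symbols ascending and pale symbols descending aorta. Levels of different genes come from different probes and are not comparable, so each row is read on its own; Col4a1 spans 9.27 to 9.45 over all 8 arrays, while Npnt spans 6.01 to 7.80.

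The first question was whether loss of Lox went with other levels of these genes in each segment. In the ascending aorta Smoc1 fell and no member rose, so 1 of 34 members passed in limma (2.94%, against 2.74% of all 16635 genes, 1.54% higher and 1.19% lower). In the descending aorta 0 of 34 passed in limma (against 2.28% of all genes, 1.46% higher and 0.824% lower). With the unadjusted p under 0.05 in limma, 9 members were counted in each segment, beside 19.1% and 18.8% of all genes. The median member differed by -0.028 log2 in the ascending and -0.018 in the descending aorta, beside 0.011 and -0.0057 over all genes tested. Arrays of the 2 genotypes did not overlap for 21 members in the ascending aorta (61.8%, against 49.5% of all genes) and for 24 in the descending aorta (70.6%, against 51.1%). So single segments gave few calls, at about the share seen over the whole array. These counts do not show that the other members were unchanged. In a simulation of the ascending comparison, 1.5% of genes changed by 0.5 log2 passed. Averaged over both segments, a comparison that uses the same 8 arrays again, 3 members rose and 4 fell (20.6%, against 11.4% of all genes, 6.21% higher and 5.22% lower). All KO arrays stood apart from all WT arrays for 7 members (20.6%, against 17% of all genes).

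**Figure D2:**
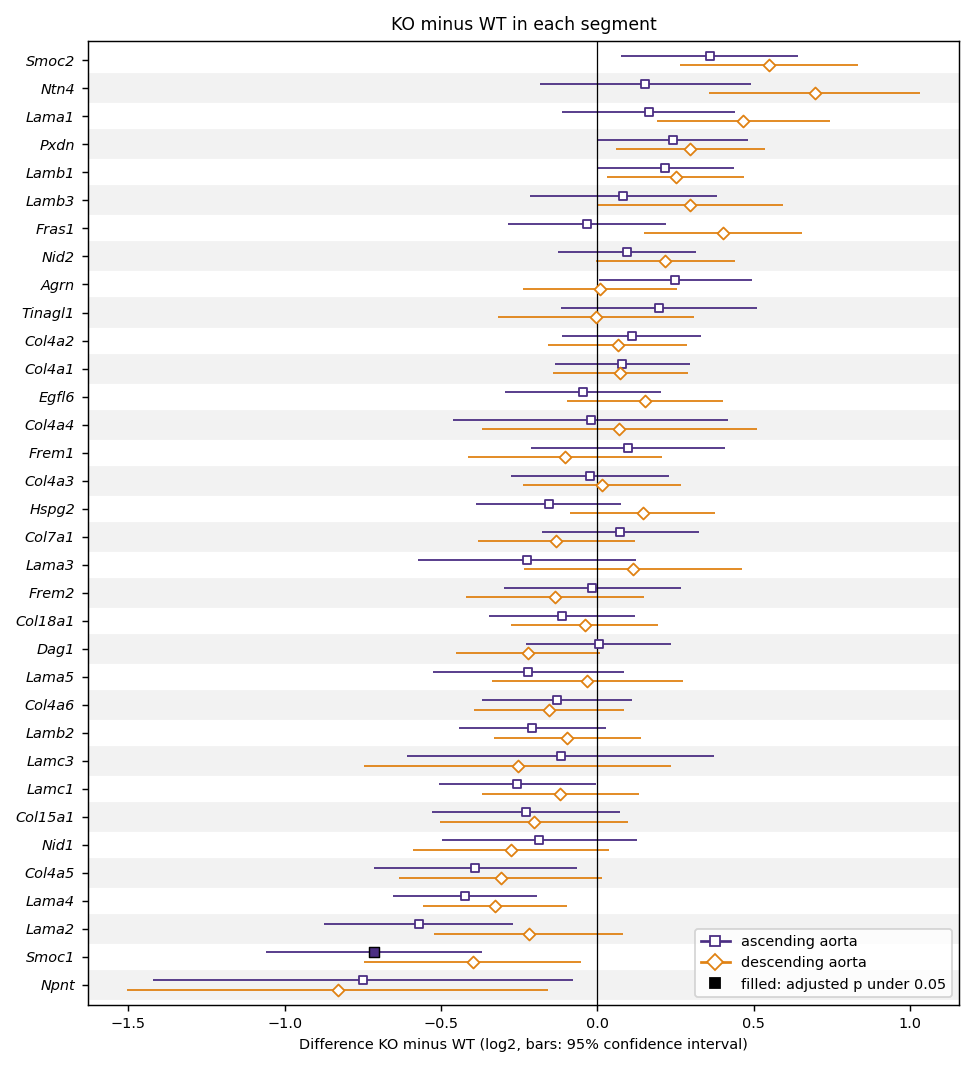
Difference KO minus WT in log2 signal for each of the 34 genes, in the ascending (squares) and descending (diamonds) aorta, with the 95% confidence interval of the limma fit, not adjusted for the number of genes; filled symbols passed at an adjusted p under 0.05. Only Smoc1 in the ascending aorta is filled, at -0.71.

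The 2 SMOC genes went in opposite directions without Lox. Smoc1 and Smoc2 encode secreted calcium-binding proteins related to SPARC, and SMOC1 is known to modulate BMP signalling. Smoc1 read 8.80 and 8.88 in WT ascending, 7.96 and 8.29 in KO ascending, 8.87 and 8.77 in WT descending and 8.25 and 8.60 in KO descending aorta. Every KO array was below every WT array. The fall was 0.71 log2 in the ascending segment, written -0.71 (SE 0.15, adjusted p = 0.0491, a 1.64-fold difference), and the descending difference was -0.40 (adjusted p = 0.208). Averaged over segments Smoc1 fell by 0.56 (SE 0.11, adjusted p = 0.0154). The ascending call was lost without any of the 4 ascending arrays (values -0.88 to -0.55, adjusted p 0.0685 to 0.211) or either WT descending array (adjusted p = 0.079). The averaged one was lost without WT ascending array 2 (-0.54, adjusted p = 0.0518) or WT descending array 1 (-0.53, adjusted p = 0.0607).

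Smoc2 read 7.72 and 7.75 in WT ascending, 8.01 and 8.18 in KO ascending, 8.08 and 7.83 in WT descending and 8.43 and 8.58 in KO descending aorta. Within each segment both KO arrays were above both WT arrays. The differences were 0.36 (adjusted p = 0.163) and 0.55 (adjusted p = 0.062), and averaged over segments Smoc2 rose by 0.45 (SE 0.09, adjusted p = 0.0156). That averaged call held in all 14 alternatives, at adjusted p values up to 0.0499.

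Of the 5 laminin alpha chains, which carry the cell-binding end of the trimer, 2 fell and 1 rose in KO aorta when segments were averaged. Of all genes 5.22% fell and 6.21% rose in that comparison, and 5 chains are too few to read as a family. Lama4, the chain of endothelial and other vascular basement membranes, read 9.59 and 9.59 in WT ascending, 9.09 and 9.25 in KO ascending, 9.63 and 9.59 in WT descending and 9.27 and 9.29 in KO descending aorta. The WT arrays lay close together and every KO array was below them. Lama4 fell by 0.38 (SE 0.07, adjusted p = 0.0146) on average, and the ascending and descending differences were -0.42 and -0.33 (adjusted p = 0.065 and 0.135). Without WT descending array 1 the call was lost (-0.37, adjusted p = 0.0567). The endothelial marker list given above was lower on the same 4 KO arrays, and its part in the Lama4 value was not tested.

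Lama2, the alpha chain of muscle and nerve basement membranes, read 9.39 and 9.41 in WT ascending, 8.64 and 9.01 in KO ascending, 9.11 and 9.02 in WT descending and 8.86 and 8.82 in KO descending aorta. Each KO array was below each WT array, narrowly so between the higher KO ascending and the lower WT descending array. Lama2 fell by 0.40 (SE 0.09, adjusted p = 0.031) on average, and the ascending and descending differences were -0.57 and -0.22 (adjusted p = 0.061 and 0.416). Its averaged call was lost when any array other than KO ascending array 2 was left out (-0.42 to -0.30, adjusted p up to 0.104). The interaction of genotype and segment was -0.35 (adjusted p = 0.908), so a difference between the segments was not shown.

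Lama1, an alpha chain prominent in the embryo, read 5.51 and 5.63 in WT ascending, 5.61 and 5.87 in KO ascending, 5.12 and 5.10 in WT descending and 5.66 and 5.50 in KO descending aorta. The WT descending arrays were the low ones, and the ascending genotypes overlapped. Lama1 rose by 0.32 (SE 0.09, adjusted p = 0.0493) on average, with 0.17 (adjusted p = 0.51) ascending and 0.47 (adjusted p = 0.09) descending. The call rested close to the threshold and was lost when any array other than KO ascending array 1 was left out (0.25 to 0.36, adjusted p up to 0.14), without the dim filter, with the trended robust prior, with cyclic loess and with the replicate block.

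Lama5, a widespread alpha chain of vessels and epithelia, did not pass for genotype (-0.22 ascending and -0.03 descending), nor did Lama3, an alpha chain of epithelial basement membranes (-0.22 and 0.11). The same held for the beta and gamma chains. Lamb1 read 9.20 and 9.11 in WT ascending, 9.37 and 9.36 in KO ascending, 9.04 and 9.02 in WT descending and 9.26 and 9.30 in KO descending aorta, above WT on all 4 KO arrays. Its averaged difference of 0.23 missed the threshold (adjusted p = 0.06). Lamb2 differed by -0.15 (adjusted p = 0.221) and Lamc1, the gamma chain of most laminins, by -0.19 (adjusted p = 0.161). Lamb3 and Lamc3 differed by 0.19 and -0.19 (adjusted p = 0.225 and 0.483).

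Npnt, nephronectin, a ligand of integrin alpha 8 beta 1, had the largest averaged genotype difference of the 34 genes and the widest spread. It read 7.60 and 7.80 in WT ascending, 6.49 and 7.41 in KO ascending, 7.31 and 6.92 in WT descending and 6.56 and 6.01 in KO descending aorta. Within each segment KO arrays were below WT arrays, although the 2 KO ascending arrays were far apart. Npnt fell by 0.79 (SE 0.21, adjusted p = 0.0447) on average, with -0.75 (adjusted p = 0.217) and -0.83 (adjusted p = 0.181) in the segments. The call was lost when any array other than KO ascending array 2 was left out (-0.93 to -0.56, adjusted p up to 0.141), without the dim filter, with the trended robust prior and with the replicate block. Itga8, which encodes the alpha chain of its receptor, read between 11.36 and 11.70 on the 8 arrays.

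Ntn4 encodes netrin 4, which binds laminin gamma chains and loosens the laminin network. It read 5.79 and 6.06 in WT ascending, 6.06 and 6.10 in KO ascending, 5.92 and 5.61 in WT descending and 6.58 and 6.34 in KO descending aorta. The KO descending arrays were the high ones, while in the ascending aorta the higher WT array sat just under both KO arrays. Ntn4 rose by 0.42 (SE 0.10, adjusted p = 0.036) on average, with 0.15 (adjusted p = 0.624) and 0.70 (adjusted p = 0.052) in the segments. The interaction was -0.54 (adjusted p = 0.854). The averaged call was lost without WT ascending array 1, either KO ascending array, WT descending array 2 or KO descending array 1 (0.35 to 0.43, adjusted p up to 0.108), and without the dim filter.

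Col4a1 and Col4a2, peroxidasin and perlecan did not pass the test for genotype. Col4a1, a chain of the ubiquitous collagen IV trimer with Col4a2, read 9.27 and 9.32 in WT ascending, 9.38 and 9.37 in KO ascending, 9.34 and 9.37 in WT descending and 9.40 and 9.45 in KO descending aorta. Its averaged difference was 0.08 (95% confidence interval -0.08 to 0.23, adjusted p = 0.516), and that of Col4a2 was 0.09 (-0.07 to 0.24, adjusted p = 0.462). The segment differences were 0.08 and 0.07 for Col4a1 and 0.11 and 0.065 for Col4a2, and differences up to the bounds of the intervals could have been missed. Pxdn, peroxidasin, was higher on all 4 KO arrays than on the WT arrays, and its averaged difference of 0.27 (0.10 to 0.44) had an adjusted p of 0.051. Hspg2, perlecan, the large heparan sulfate proteoglycan of the sheet, differed by -0.16 in ascending and 0.14 in descending aorta, with no overlap of arrays in either segment, and the interaction did not pass (-0.30, adjusted p = 0.895).

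The linker Nid2 differed by 0.16 (adjusted p = 0.18) on average. Nid1 differed by -0.23 (adjusted p = 0.164), but a second probe set of Nid1 gave 0.06, so its direction depended on the probe set. Agrn, agrin, the heparan sulfate proteoglycan that binds dystroglycan, differed by 0.13 and Col15a1 and Col18a1, whose fragments include endostatin-like peptides, by -0.22 and -0.08. Dag1, which encodes both dystroglycan subunits, differed by 0.0039 in ascending and -0.22 in descending aorta. None of these passed the test for genotype. The other members not named so far in a genotype comparison (Col4a3, Col4a4, Col7a1, Frem1, Frem2, Fras1, Egfl6 and Tinagl1) had averaged differences between -0.08 for Frem2 and 0.18 for Fras1.

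**Figure D3:**
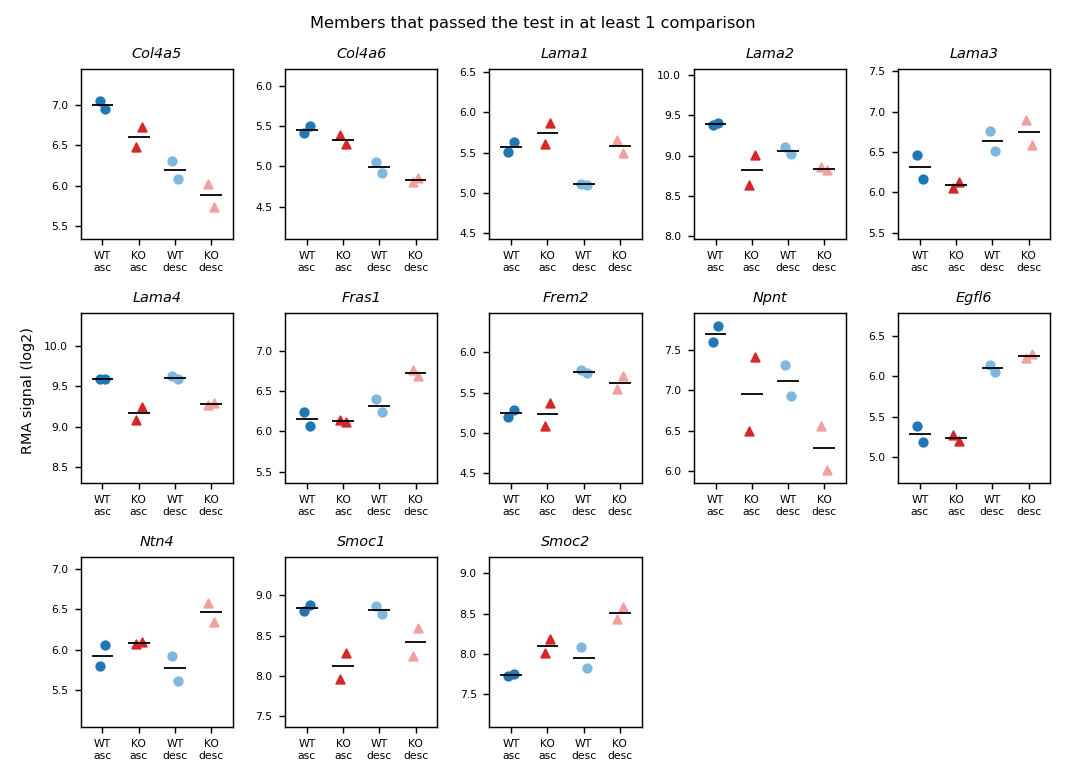
Log2 signal of the 13 genes that passed the test in at least 1 of the 7 comparisons, each point 1 array (1 pool of 8 pups) and each line the mean of the 2 arrays of a group; circles are WT and triangles KO, and every panel spans the same range of log2 units. Egfl6 steps between segments (5.18 to 5.39 ascending, 6.06 to 6.28 descending), while Smoc1 and Lama4 step between genotypes.

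The second question was how these genes differ along the aorta. Between WT segments Col4a5 was higher and Egfl6 lower in the ascending piece, so 2 of 34 members passed (5.88%, against 1.48% of all genes, 0.511% higher and 0.974% lower). Between KO segments Egfl6 and Fras1 were lower in the ascending piece, again 2 of 34 (5.88%, against 1.48% of all genes, 0.547% higher and 0.938% lower). Averaged over genotypes, on the same 8 arrays, 2 members were higher and 4 lower in the ascending piece (17.6%, against 4.07% of all genes, 1.5% higher and 2.57% lower). The median member differed by 0.015 log2 between WT segments and 0.0068 between KO segments, beside -0.0048 and -0.0016 over all genes. Arrays did not overlap between segments for 24 members in WT (70.6%, against 42.4% of all genes) and 22 in KO (64.7%, against 41% of all genes). The genes named next thus moved both ways, with no shift of the median.

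**Figure D4:**
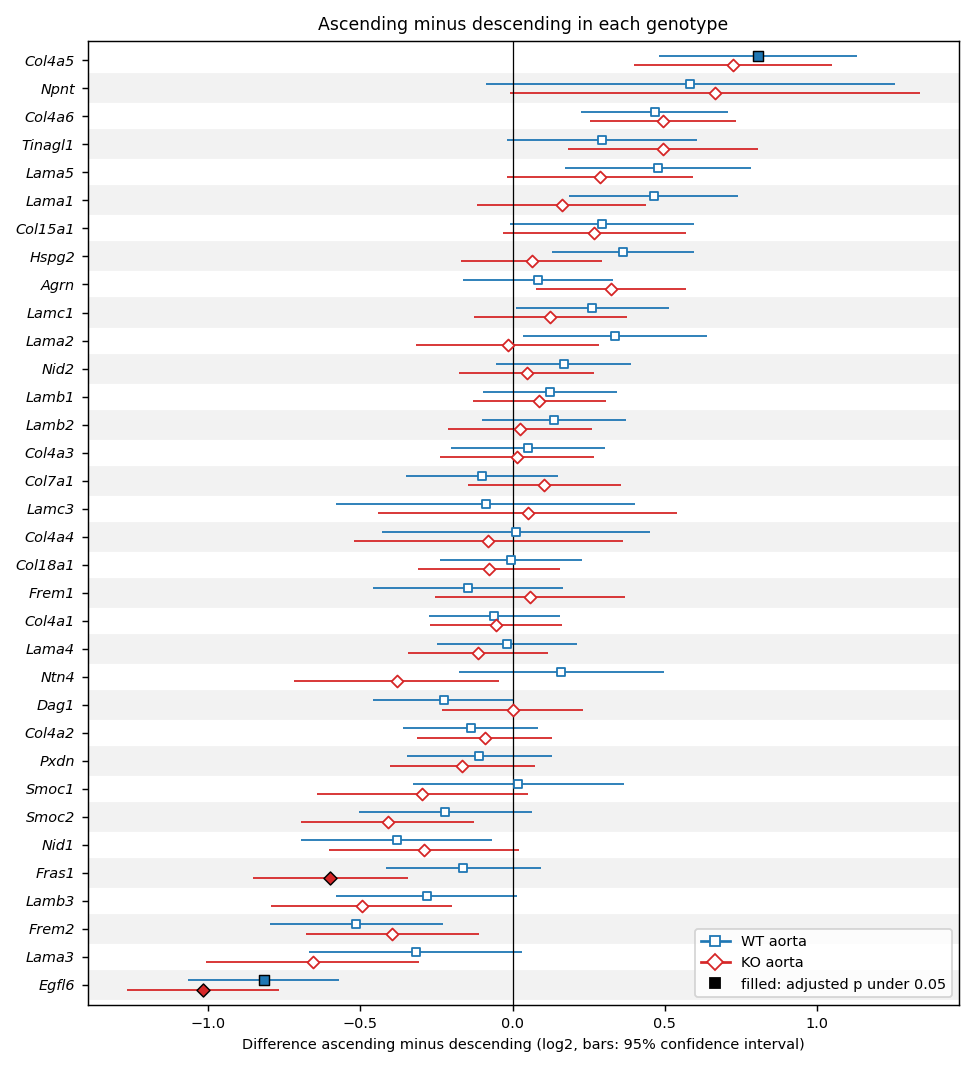
Difference ascending minus descending in log2 signal for each of the 34 genes in WT (squares) and KO (diamonds) aorta, with the 95% confidence interval of the limma fit, not adjusted for the number of genes; filled symbols passed at an adjusted p under 0.05. Col4a5 lies at the top (0.81 in WT) and Egfl6 at the bottom (-0.82 in WT and -1.02 in KO).

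Egfl6 had the most stable segment difference. It encodes a secreted EGF-like repeat protein that, like nephronectin, carries a MAM domain and an RGD integrin-binding site. Egfl6 read 5.39 and 5.18 in WT ascending, 5.27 and 5.20 in KO ascending, 6.14 and 6.06 in WT descending and 6.23 and 6.28 in KO descending aorta. All 4 descending arrays were above all 4 ascending arrays. It was lower in the ascending aorta by -0.82 (SE 0.11, adjusted p = 0.011) in WT, by -1.02 (SE 0.11, adjusted p = 0.00542) in KO and by -0.92 (SE 0.08, adjusted p = 0.000565) on average. The WT call was lost without WT ascending array 2 or either WT descending array (-0.86 to -0.72, adjusted p up to 0.0896), and the KO and averaged calls held in every alternative run. Npnt, its relative, was on average higher in the ascending piece by 0.62, which did not pass (adjusted p = 0.172).

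Col4a5 and Col4a6, the X-linked pair shown above, were both higher in the ascending aorta. Together their products form the alpha 5 and alpha 6 chains of the collagen IV trimer found in smooth muscle basement membranes. Col4a5 read 7.04 and 6.95 in WT ascending, 6.48 and 6.73 in KO ascending, 6.30 and 6.08 in WT descending and 6.02 and 5.74 in KO descending aorta. The 4 groups did not overlap and stood in that order from high to low, though neighbouring groups of the same segment did not differ by the test. Col4a5 was higher in ascending aorta by 0.81 (SE 0.14, adjusted p = 0.0337) in WT, by 0.72 (adjusted p = 0.052) in KO and by 0.77 (SE 0.10, adjusted p = 0.00448) on average. The WT call was lost without any of the 4 WT arrays (0.70 to 0.92, adjusted p up to 0.209), and the averaged call held in every alternative run.

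Col4a6 read 5.41 and 5.50 in WT ascending, 5.38 and 5.27 in KO ascending, 5.06 and 4.92 in WT descending and 4.81 and 4.86 in KO descending aorta. All ascending arrays were above all descending arrays, and within each segment KO arrays were below WT arrays. The averaged segment difference was 0.48 (SE 0.07, adjusted p = 0.00922) and held in every alternative run that tested the gene, with 0.47 (adjusted p = 0.082) in WT and 0.49 (adjusted p = 0.069) in KO aorta. For genotype, Col4a5 differed on average by -0.35 (adjusted p = 0.059) and Col4a6 by -0.14 (adjusted p = 0.261). The chromosome 8 pair differed little between segments (Col4a1 by -0.06, Col4a2 by -0.12 on average), and neither passed. Col4a3 and Col4a4, the pair best known from the kidney filter, read 4.83 to 5.02 and 4.61 to 5.09 over the 8 arrays and differed between segments by 0.03 and -0.03 on average.

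Fras1 and Frem2 encode large proteins that act with Frem1 in 1 complex under embryonic epithelia. Fras1 read 6.25 and 6.07 in WT ascending, 6.14 and 6.11 in KO ascending, 6.40 and 6.24 in WT descending and 6.76 and 6.68 in KO descending aorta. The KO descending arrays stood above the other 6. Fras1 was lower in ascending aorta by -0.60 (SE 0.11, adjusted p = 0.0422) in KO, by -0.16 (adjusted p = 0.64) in WT and by -0.38 (adjusted p = 0.0336) on average. Both calls were lost when any 1 of the 8 arrays was left out (-0.64 to -0.56, adjusted p 0.0552 to 0.188, in KO and -0.42 to -0.34, adjusted p 0.051 to 0.122, on average). The interaction of -0.44 had an adjusted p of 0.805.

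Frem2 read 5.20 and 5.29 in WT ascending, 5.09 and 5.37 in KO ascending, 5.78 and 5.74 in WT descending and 5.54 and 5.71 in KO descending aorta. Descending arrays were above ascending arrays in both genotypes. Frem2 was lower in ascending aorta by -0.45 (SE 0.09, adjusted p = 0.0255) on average, with -0.51 (adjusted p = 0.105) in WT and -0.39 (adjusted p = 0.223) in KO. Leaving out either WT ascending array, KO ascending array 1, either WT descending array or KO descending array 2 ended the call (-0.48 to -0.38, adjusted p up to 0.0936). Frem1 differed by -0.05 on average.

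Lama3 read 6.46 and 6.17 in WT ascending, 6.05 and 6.13 in KO ascending, 6.75 and 6.51 in WT descending and 6.90 and 6.59 in KO descending aorta. Descending arrays were above ascending arrays, narrowly so between the higher WT ascending and the lower WT descending array. Lama3 was lower in ascending aorta by -0.49 (SE 0.11, adjusted p = 0.0445) on average, and the call was lost when any array other than KO descending array 2 was left out (-0.56 to -0.41, adjusted p up to 0.148) and without the dim filter. Lamb3, a laminin beta chain of epithelia, read 5.08 to 5.22 on the ascending and 5.23 to 5.75 on the descending arrays, an averaged difference of -0.39 (adjusted p = 0.058).

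Several other members separated the segments on all 8 arrays without passing. Lama5 was higher in ascending aorta by 0.38 (adjusted p = 0.067), Tinagl1, a tubulointerstitial nephritis antigen-like protein, by 0.39 (adjusted p = 0.065) and Hspg2 by 0.21 (adjusted p = 0.176), and Nid1 was lower by -0.34 (adjusted p = 0.111; -0.11 with its second probe set). With the 6 that passed less Fras1, whose arrays overlapped, and with Lamb3, that made 10 of 34 without overlap (29.4%, against 7.26% of all genes). Markers of Schwann cells and sympathetic neurons (6 genes) summed to 8.76 to 8.95 in ascending and 9.91 to 10.39 in descending aorta, with 3 of 6 lower in the ascending piece in each genotype and 4 of 6 on average. Stmn2, of neurons, read 7.24 to 7.58 in ascending and 8.97 to 9.51 in descending aorta. Of the Schwann cell genes, Sox10 read 5.41 to 5.59 and 5.42 to 5.57. Erbb3 read 5.11 to 5.63 and 5.41 to 6.04, and S100b 6.98 to 7.45 and 7.46 to 8.23. Adipocyte markers were also lower in the ascending piece, 1 of 7 in WT, 2 of 7 in KO and 6 of 7 on average, as were endothelial markers, 2 of 10 in WT, 1 of 10 in KO and 4 of 10 on average. Lung epithelial markers were lower for 1 of 9 between WT segments, with all 9 below 0 and a median of -0.99, and for 0 of 9 between KO segments (limma; 1 at an unadjusted p under 0.05). Of all genes 15.7% had an unadjusted p under 0.05 in limma for segment on average. Of the cardiac markers 1 of 6 was lower in the ascending piece on average (median -0.75, 6 of 6 at an unadjusted p under 0.05). Skeletal muscle markers had 0 of 6 passing in limma on average (2 at an unadjusted p under 0.05), with all 6 below 0 and a median of -0.88. Thymus markers had 0 of 5 passing on average, with a median of 0.45 (limma; 2 at an unadjusted p under 0.05). Mesothelial markers (6 genes) summed to 9.74 to 10.10 and 9.61 to 9.96, with 1 of 6 higher in the ascending piece on average, and general epithelial markers (8 genes, 6 tested) to 8.93 to 9.30 and 8.82 to 9.03, with 0 of 6 passing. The part of these cell types in the segment differences was not tested.

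The interaction, which asks if the genotype difference depends on the segment, passed for 0 of 34 members and for 0 of 16635 genes (0% of all genes) in limma. At an unadjusted p under 0.05 it counted 2 members, Fras1 and Ntn4, 5.88% of them, against 5.6% of all genes. The median interaction over members was -0.08 log2, with 22 of 34 below 0, beside a median of 0.0032 over all genes. A missed threshold does not show that the segments behaved alike, and the 95% interval for Smoc1, for example, ran from -0.81 to 0.17.

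Genes that work with the basement membrane were read from 5 lists. Beside them, of all genes 1.54% rose and 1.19% fell in KO ascending, 1.46% and 0.824% in KO descending aorta, and 6.21% and 5.22% on average. At an unadjusted p under 0.05 in limma the shares were 19.1% and 18.8% for genotype in ascending and descending aorta. For segment they were 12.3% in WT, 12.1% in KO and 15.7% on average. At an adjusted p under 0.05 in limma, 1.5% were higher and 2.57% lower in the ascending piece on average. Of the genes that fold, hydroxylate and secrete collagen IV and other collagens, 2 of 10 tested rose in the ascending aorta, 2 rose in the descending aorta and 0 fell in either, with medians of 0.27 and 0.31 log2. P4ha1, a prolyl 4-hydroxylase subunit, read 7.53 and 7.49 in WT ascending, 8.54 and 8.51 in KO ascending, 7.70 and 7.76 in WT descending and 8.89 and 8.71 in KO descending aorta. Plod2, a lysyl hydroxylase, read 8.73 and 8.69, 9.33 and 9.42, 8.40 and 8.54, and 9.54 and 9.32 in the same order of groups. For both genes every KO array was above every WT array. No collagen IV gene did so, but Col4a1 missed it narrowly. It read 9.3706 on KO ascending array 2 and 9.3707 on WT descending array 2. Averaged over segments 6 of 10 rose, among them also P4ha2 (0.44), Colgalt1 (0.38), which adds galactose to hydroxylysine, Sec23a (0.32) of the export coat and Serpinh1 (0.31), the collagen chaperone. The Plod2 calls were lost without any ascending array in the ascending (0.62 to 0.71) and without WT or KO descending array 1 in the descending aorta (0.85 to 0.89, adjusted p up to 0.0912). The P4ha1 call in the descending aorta was lost without WT descending array 1 (adjusted p = 0.06). On average P4ha1 and Plod2 held in every alternative run, and each of the other 4 was lost without at least 5 of the 8 arrays in turn.

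Laminin and collagen receptors, mainly integrin chains, passed for 0 of 11 genes in each comparison of 2 groups (limma; at an unadjusted p under 0.05, 1 and 3 for genotype in ascending and descending, and 1 and 2 for segment in WT and KO). Nearest to it were Itga6, a laminin receptor chain, at -0.61 (adjusted p = 0.0536) and Itga1, a collagen receptor chain, at -0.575 (adjusted p = 0.077), for segment in WT and KO. On average Ddr1, a collagen receptor kinase, rose in KO by 0.38 and Itga1 was lower in ascending aorta by -0.43. In the dystroglycan complex and the enzymes that glycosylate it, 1 of 12 fell in ascending KO aorta, Sntb1, a syntrophin, by 0.63 (SE 0.13, adjusted p = 0.0458), a call lost when any 1 array was left out (-0.79 to -0.48). On average Dtna, dystrobrevin alpha, fell by 0.38 and the glycosylation genes Pomgnt1 and Pomt2 rose by 0.44 and 0.31. Ddr1, Itga1, Dtna, Pomgnt1 and Pomt2 each lost their averaged call when any of 6 or more of the 8 arrays was left out in turn (adjusted p up to 0.146).

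Enzymes that cleave the sheet, and their inhibitors, passed for 0 of 12 in each comparison of 2 groups (at an unadjusted p under 0.05, 5 and 2 for genotype, and 1 and 2 for segment). Averaged over segments Plau, urokinase, rose by 0.70 (adjusted p = 0.0177) and Mmp9, a gelatinase, by 0.42 (adjusted p = 0.0414), and averaged over genotypes Adamts1 was higher in ascending aorta by 0.45 (adjusted p = 0.0196). Plau lost its call without WT descending array 2 (adjusted p = 0.0571), Mmp9 without any array other than KO descending array 2, and Adamts1 without any of 6 arrays. Leukocyte markers (7 genes) summed to 10.16 and 10.74 in WT ascending, 11.87 and 11.99 in KO ascending, 10.57 and 10.91 in WT descending and 11.36 and 11.74 in KO descending aorta, with 2 and 1 of 7 higher in KO in the segments and 4 of 7 on average, and their part in the Mmp9 value was not tested. Other basement membrane and linker proteins passed for 0 of 13 in all 7 comparisons, and for genotype 2 and 1 of them had an unadjusted p under 0.05 in ascending and descending aorta. The nearest, Fbln2, fibulin 2, differed by -0.30 between KO segments (adjusted p = 0.265).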

How the data were processed

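RNA was measured on 8 Affymetrix mouse gene arrays, 2 for each of 4 groups. The values are log2 signals that the authors made with RMA in Affymetrix Expression Console, per the submitters' processing notes, and deposited as 1 table. Versions, options and batches were not given in sources used here. RMA normalizes arrays to 1 distribution, so values are relative to each pool's total RNA, and differences at low signal can be compressed.

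Of 41345 probe sets, 23521 had 1 gene symbol, 1814 several and 16010 none. The brightest probe set was used per gene (22180 genes), and genes whose mean lay under the 25th percentile (4.11 log2) were left out. The fit was limma 3.58.1 under R 4.3.3, over all 8 arrays with 1 coefficient per group, eBayes with its default prior (residual df 4, prior df 4.51) and Benjamini-Hochberg adjustment over 16635 genes. Adjusted p values under 0.05 pass. The labels call the samples biological replicates and do not say how pups were assigned to pools.

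Members and lists were chosen with earlier results of these data known. Named were all members, and from each list up to 4 genes by smallest p and those that passed in an averaged comparison. Alternatives were cyclic loess, no dim filter or one at the 50th percentile, a prior that was trended and robust, a block for replicate number, probe sets averaged per gene, a fit restricted to the compared arrays, and leaving out arrays in turn. A simulation checked the fit, with 200 of 16635 genes given a known genotype change in the ascending aorta. At a change of 0.5 log2, 1.5% of these genes passed and 25% of the calls were false, a share that rests on very few calls. At 1 log2 the shares were 98% and 7.55%, and at 2 log2 they were 100% and 5.21%. Differences near 0.5 log2 were thus mostly missed in that simulation. In the data 455 genes passed in the ascending comparison, and the adjusted threshold depends on how many genes differ. The simulated shares therefore need not hold for the data. Promoter windows printed were limited to 3 genes. Figures used matplotlib 3.10.9.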

Additional observations from a re-analysis of the deposited data

How the results depend on the processing

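The counts of members that passed moved with the settings, as did the counts over all genes. For KO against WT in the ascending aorta the count was 0 without the dim filter, with cyclic loess and when only the compared arrays were fitted. With the 50th percentile filter, which left 27 members, it was 3, beside 756 of 11090 genes. With the trended robust prior it was 3 of 34, beside 1014 of 16635 genes. In the descending aorta it was 2 of 27 with the 50th percentile filter, beside 717 of 11090 genes. It was 3 of 34 with the trended robust prior, beside 922 of 16635 genes. Between WT segments it was 0 to 2 when 1 array was left out. Between KO segments it was 1 without the dim filter and when only the compared arrays were fitted, 4 with the trended robust prior, and 1 to 1 when 1 array was left out. Averaged over segments it was 4 without the dim filter and 2 to 5 when 1 array was left out, and averaged over genotypes 11 with the trended robust prior and 3 to 5 when 1 array was left out. The interaction count was 0 throughout. Over all genes the counts ran from 64 to 1014 for KO against WT ascending, 20 to 922 descending, 63 to 444 and 54 to 430 between WT and between KO segments, 782 to 2604 and 390 to 951 for the averages, and 0 to 11 for the interaction. These runs tested 16635 genes, but 22180 without the dim filter and 11090 with the 50th percentile filter. No value that passed changed sign in any alternative.

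The replicate number as a block gave 1, 0, 2 and 2 members in the 4 comparisons of 2 groups, and 5 and 6 in the averaged comparisons of genotype and segment. Same-numbered arrays deviated together with correlations of -0.095 to 0.126 over the 6 pairs of groups, so the numbers were not taken as pairs. Where 1 array was left out, the remaining array of its group took its spread from the other groups.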
